A study of Mus musculus with 3 samples.

Results

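The 748 regions described here are stretches of chromatin with few ATAC-seq counts under the label Fat1 cKO Epcam+ and many more in the other 2 libraries of the series. They were selected on the deposited counts themselves, out of 95842 regions in all and 93843 on chromosomes 1 to 19. Each had at least 20 counts in the control Epcam+ column and at least 20 in the Fat1 cKO Epcam- column, with scaled values less than 2-fold apart. Both scaled values were at least 3 times that of the Fat1 cKO Epcam+ column. A scaled value is the count plus 1, divided by the column's total outside the mitochondrial genome and given per 1000000. Columns and libraries are called by their labels throughout. The low counts in 1 column are how the regions were chosen, so they are given as a description with no test.

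ATAC-seq cuts open chromatin with the transposase Tn5, so a region's count rises with how accessible its DNA was in the cells. The cells were sorted from squamous cell carcinomas of mouse skin in animals of mixed background, raised in the published study with the mutagen DMBA and the tumour promoter TPA. All 3 groups carry K14Cre and RYFP, a YFP reporter switched on by a Cre recombinase under the keratin 14 promoter, which is active in basal epidermal cells. The control group is K14Cre;RYFP and holds Epcam+ tumour cells. The other groups are K14Cre;Fat1fl/fl,RYFP, with conditional deletion of the atypical cadherin gene Fat1, and hold Epcam+ and Epcam- cells, in samples whose titles share a prefix. The groups are read from the titles, in which Epp is taken as Epcam+ and Epm as Epcam-. Each group has 1 library, so no difference below has a replicate check or a p-value.

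Epcam is an adhesion protein on the surface of epithelial cells, and tumour cells that pass through an epithelial to mesenchymal transition (EMT) lose it. Open regions at gene starts are mostly promoters and tend to be open in many cell types. Open regions away from gene starts are often enhancers, which switch more between cell states.

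The peak calls and the counts of 2 columns run crosswise in these files. Peaks that the authors called in the control Epcam+ library alone had a median of 2.08 CPM (counts per 1000000 nuclear counts) for the control Epcam+ counts and 5.29 for the Fat1 cKO Epcam- counts. Peaks called in the Fat1 cKO Epcam- library alone had medians of 1.82 CPM for their own counts and 5.77 for the control Epcam+ counts. Peaks called in the Fat1 cKO Epcam+ library alone had their highest median, 6.29 CPM, in their own counts. The rule treats the crossed columns alike, so exchanging their names would pick the same 748 regions. Any statement below that sets those columns apart rests on the labels.

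Nuclear counts were 4335304 for control Epcam+, 3812880 for Fat1 cKO Epcam+ and 5485317 for Fat1 cKO Epcam-, and 39.1% to 42.6% of all counts were mitochondrial. Y chromosome counts came to 78.2, 57.2 and 218 CPM in that order, so the last library stood apart from the one whose title shares its prefix. Regions of Epcam came to 70.4, 215 and 132 CPM, which puts the Fat1 cKO Epcam- label above the control Epcam+ label. The 6 epithelial markers, none of them at 0, summed to 327, 815 and 705 CPM, and the 7 mesenchymal markers, none of them at 0, to 803, 620 and 383 CPM. The level of both lists thus goes against the order that the Epcam labels of control Epcam+ and Fat1 cKO Epcam- would give.

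Few of the regions lie over a promoter, and 4 that do are shown first because their letters can be read beside their counts. They are the named genes among the 15 regions near a gene end with the largest fold whose own promoter window overlaps the region. Each line gives the 250 bases before the start, 5′ to 3′ on the gene's strand, from the RefSeq promoter table of GRCm38.p6. Capitals mark matches on either strand to any motif searched, which in these windows are the GC box (GGGCGG), the CCAAT box (CCAAT) or a GATA motif (AGATAAG). The windows are chr6:149101681-149101930 on the minus strand for Dennd5b and chr11:35121206-35121455 on the plus strand for Slit3. They are chr11:31370062-31370311 on the minus strand for Stc2 and chr5:110879553-110879802 on the plus strand for Ttc28.

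Dennd5b: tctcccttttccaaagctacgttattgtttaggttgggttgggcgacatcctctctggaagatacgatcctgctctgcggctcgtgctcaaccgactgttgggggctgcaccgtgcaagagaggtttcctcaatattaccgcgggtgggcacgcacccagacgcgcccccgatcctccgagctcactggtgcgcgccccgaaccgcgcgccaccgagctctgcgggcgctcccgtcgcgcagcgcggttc

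Slit3: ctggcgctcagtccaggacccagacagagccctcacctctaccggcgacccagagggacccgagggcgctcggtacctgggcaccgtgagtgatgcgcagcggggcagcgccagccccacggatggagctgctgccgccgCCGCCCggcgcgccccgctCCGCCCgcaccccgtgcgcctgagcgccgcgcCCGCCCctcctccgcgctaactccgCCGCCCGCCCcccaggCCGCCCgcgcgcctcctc

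Stc2: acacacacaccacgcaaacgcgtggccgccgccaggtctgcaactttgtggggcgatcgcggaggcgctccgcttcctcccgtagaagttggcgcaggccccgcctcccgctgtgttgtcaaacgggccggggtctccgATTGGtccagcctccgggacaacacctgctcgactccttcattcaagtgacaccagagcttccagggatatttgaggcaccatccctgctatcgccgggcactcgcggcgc

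Ttc28: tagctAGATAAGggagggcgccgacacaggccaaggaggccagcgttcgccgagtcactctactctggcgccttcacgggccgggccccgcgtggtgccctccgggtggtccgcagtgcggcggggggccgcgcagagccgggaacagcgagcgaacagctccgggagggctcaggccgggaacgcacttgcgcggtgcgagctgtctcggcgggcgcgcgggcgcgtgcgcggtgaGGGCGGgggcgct

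These 4 windows are rich in CpG. Dennd5b had 28 CpG in the 250 bases and a GC content of 63.6%, Slit3 had 35 and 78.8%, Stc2 had 24 and 64.4%, and Ttc28 had 36 and 74.8%. The Slit3 window held 6 matches to the GC box, Ttc28 held 1, and Dennd5b and Stc2 held 0. Stc2 held the CCAAT box and Ttc28 the GATA motif, and Dennd5b held no motif searched.

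At the Dennd5b promoter, whose gene encodes a DENN domain protein of the family that activates Rab GTPases, the counts were 323 for control Epcam+, 47 for Fat1 cKO Epcam+ and 384 for Fat1 cKO Epcam-. At Slit3, a secreted ligand of the Robo receptors, they were 142, 20 and 157 in the same order. At Stc2, the secreted glycoprotein stanniocalcin 2, they were 123, 20 and 178, and at Ttc28 they were 75, 12 and 116. The smaller fold, that of the lower of the 2 high scaled values over the low one, was 5.58 for Dennd5b, 5.23 for Slit3, 5.19 for Stc2 and 5.14 for Ttc28.

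In all, 51 such promoter windows of 48 gene symbols overlapped one of the 748 regions by at least 125 bases. The promoter table holds starts on 18 of the 19 autosomes. Their median GC content was 64.4%, against 62.0% over the 11512 windows that overlap a region able to meet the rule and 52.4% over all 32536 windows in the table. Their median CpG number was 19, against 18 and 6 in the same 2 sets. The GC box was in 76.5% of the 51, against 64.0% and 33.0% in those 2 sets. The AP-1 motif (TGANTCA, N for any base) was in 7.84% of them, which is 4 windows, against 4.51% and 6.73%. The TEAD motif (GGAATG) was in 3.92%, against 9.64% and 12.6%. The CCAAT box was in 23.5%, against 35.3% and 33.8%. The RUNX motif (TGTGGT) was in 5.88%, against 9.76% and 14.0%. The GATA motif was in 1.96%, against 1.19% and 2.71%, and a homeobox motif (TAATTA) in 0 of the 51, against 1.70% and 4.84%. The motifs were searched on both strands, overlapping matches included, and a match is only a match of letters.

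Over all 748 regions the Fat1 cKO Epcam+ counts ranged from 1 to 62, with a median of 6 (1.57 CPM). The control Epcam+ counts ranged from 20 to 385, with a median of 34.5 (7.96 CPM). The Fat1 cKO Epcam- counts ranged from 20 to 389, with a median of 47.0 (8.57 CPM). In the low column no region was at 0, 14 held 1 count and 116 held 3 or fewer.

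Most folds lay near the limit. Of the 748, 439 (58.7%) had a smaller fold between 3 and 4, 151 between 4 and 5, 133 between 5 and 8, 17 between 8 and 10 and 8 above 10. The median was 3.75 and the highest 15.4.

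**Figure D1:**
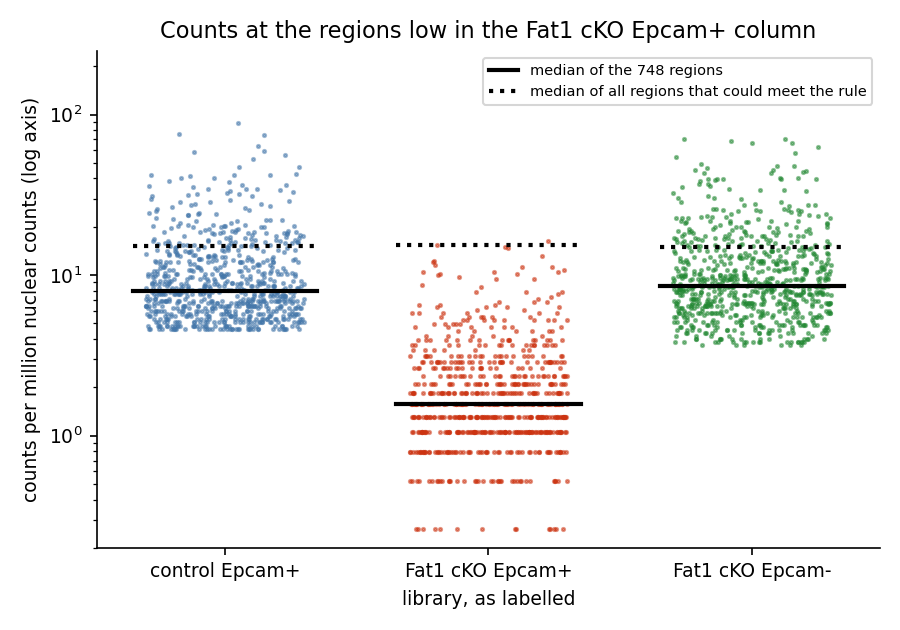
CPM (log axis) of the 748 regions in each of the 3 libraries, 1 point per region, with the median of the regions (solid line) and of all 26193 regions that could meet the rule (dotted line). The solid lines stand at 7.96, 1.57 and 8.57 CPM from left to right, and the dotted lines at 15.2, 15.5 and 14.9 CPM.

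A region could meet the rule if it passed the count minimum and the limit on the gap between the high columns, which held for 26193 regions. Of these, 748 did, or 2.86%. The same rule turned to the control Epcam+ counts picked 1252 of 26689 regions (4.69%), and turned to the Fat1 cKO Epcam- counts it picked 2252 of 27215 (8.27%). Fewest regions were thus low in the Fat1 cKO Epcam+ column alone, and the order of the 3 numbers was the same under each alternative that gave all 3. That column also had the fewest nuclear counts, 3812880, so the added count weighs most there. The part of depth in the order was not tested. Without members, the regions that could meet the rule had a median log2 ratio of the low column over the mean of the others of -0.07.

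The limit of 3-fold cuts through a continuous range. Another 1358 regions that could meet the rule lay between 2 and 3-fold. Between 3 and 3.1-fold there were 87 regions inside, and between 2.9 and 3-fold there were 65 outside. Just inside lay a region in Fam171b with 139, 40 and 218 counts, and just outside lay one near Mmd with 33, 9 and 56 counts (control Epcam+, Fat1 cKO Epcam+ and Fat1 cKO Epcam- columns, the order kept below).

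The rule did not use position, and few of the regions lay near gene ends. Of the 748, 59 (7.89%, exact 95% interval 6.06 to 10.1) had their midpoint within 1 kb of an end of a protein-coding gene, against 35.5% of the regions that could meet the rule. A further 382 lay inside a gene but away from its ends (51.1% against 35.1%), 163 outside genes but within 50 kb of one (21.8% against 20.3%), and 144 more than 50 kb from any protein-coding gene (19.3% against 9.05%). Counted with those near an end, 428 of the 748 lay inside a gene, or 57.2% against 63.0%. Read the other way, 0.634% of the regions near a gene end met the rule, and 6.07% of those over 50 kb from a gene. The interval covers counting error over regions of 1 set of libraries, and regions are not replicates.

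**Figure D2:**
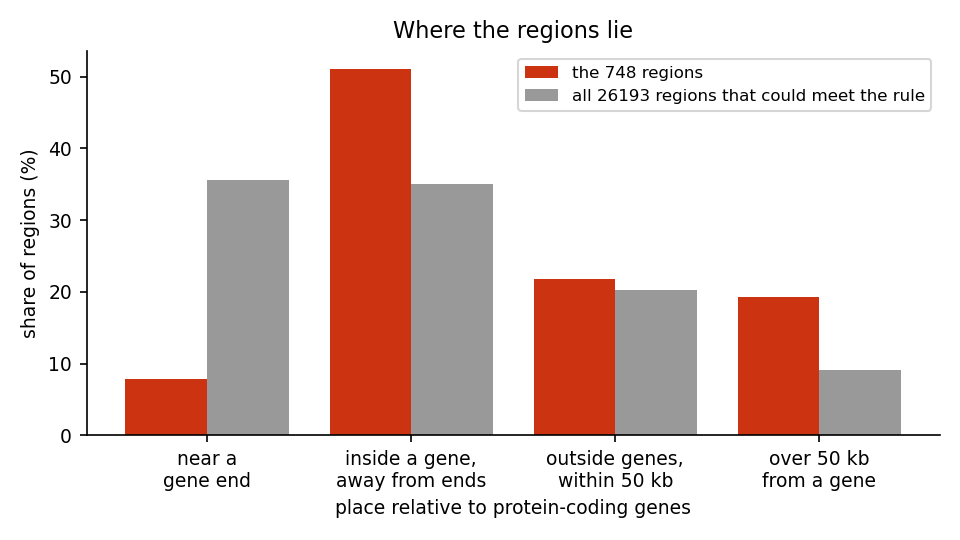
Share of regions (%) in each of 4 places relative to protein-coding genes, for the 748 regions (red) and for all 26193 regions that could meet the rule (grey). Near a gene end the red bar stands at 7.89% and the grey bar at 35.5%, and over 50 kb from a gene they stand at 19.3% and 9.05%.

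Regions near gene ends carry more counts, and the 748 were poor in counts, so the shares were also read within bands of the counts in both high columns together. Among regions with 40 to 79 such counts, 3.31% of 362 members lay near a gene end, against 8.94% of 6210 regions that did not meet the rule. From 80 to 159 counts the shares were 4.28% of 257 and 18.3% of 6882, and at 160 or more they were 27.9% of 129 and 60.2% of 12353. The share of members was lower in each band. The 2 sets turned to the other columns were also mostly away from gene ends, with 10.7% near one for the regions low only in the control Epcam+ column and 4.17% for those low only in the Fat1 cKO Epcam- column.

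The regions were also narrower, with a median of 764 bases (range 213 to 2932) against 1041 among those that could meet the rule. In the band of 40 to 79 counts the medians were 619 for members and 705 for the others, and at 160 or more they were 1203 and 1345.

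The authors' peak calls follow the counts at most of these regions. A peak had been called in the Fat1 cKO Epcam+ library at 51 of the 748 (6.82%), against 78.7% of the regions that could meet the rule. It had been called in the control Epcam+ library at 666 (89.0% against 91.7%) and in the Fat1 cKO Epcam- library at 639 (85.4% against 92.0%). At 524 regions (70.1%) both of these libraries had a peak and the Fat1 cKO Epcam+ library had none, a pattern found at 13.1% of the regions that could meet the rule. The calls come from the same libraries as the counts, so they are no independent measure. The 51 regions with a peak in all 3 libraries were the stronger ones, with a median of 26 counts in the low column and 18 of them near a gene end, against a median of 6 and 41 of 697 for the rest.

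The regions were spread thinly but not evenly over the genome. Of the 748, 186 (24.9%) had another of the regions within 100 kb, against 9.17% of the regions that could meet the rule. The sets turned to the other columns were grouped too, with 37.5% against 20.1% for the regions low only in the control Epcam+ column and 52.4% against 32.6% for those low only in the Fat1 cKO Epcam- column. Joined at that distance they formed 642 groups, of which 562 were a single region, 65 were pairs and 15 held 3 or more.

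The same direction was seen in neighbouring regions that did not meet the rule. Their ratio is the one the rule used, and members were more frequent on chromosomes with lower medians, as given below. The part of whole chromosomes in these values was not tested. Among neighbours away from gene ends, the median log2 ratio of the Fat1 cKO Epcam+ column over the mean of the other columns was -0.47 within 5 kb of a member (111 regions) and -0.45 from 5 to 20 kb (308). It was -0.27 from 20 to 100 kb, -0.11 from 100 kb to 1 Mb and -0.00 beyond 1 Mb (8641 regions). Neighbours near a gene end stood at -0.21 within 5 kb (14 regions), -0.16 from 5 to 20 kb (110), -0.20 from 20 to 100 kb (504), -0.10 from 100 kb to 1 Mb and -0.02 beyond 1 Mb, with no steady decline over the first 3 distances. Within 5 kb, 23.4% of the 111 neighbours away from gene ends and 0 of the 14 near one were at least 2-fold below both other columns. Beyond 1 Mb these shares were 5.69% and 1.36%.

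**Figure D3:**
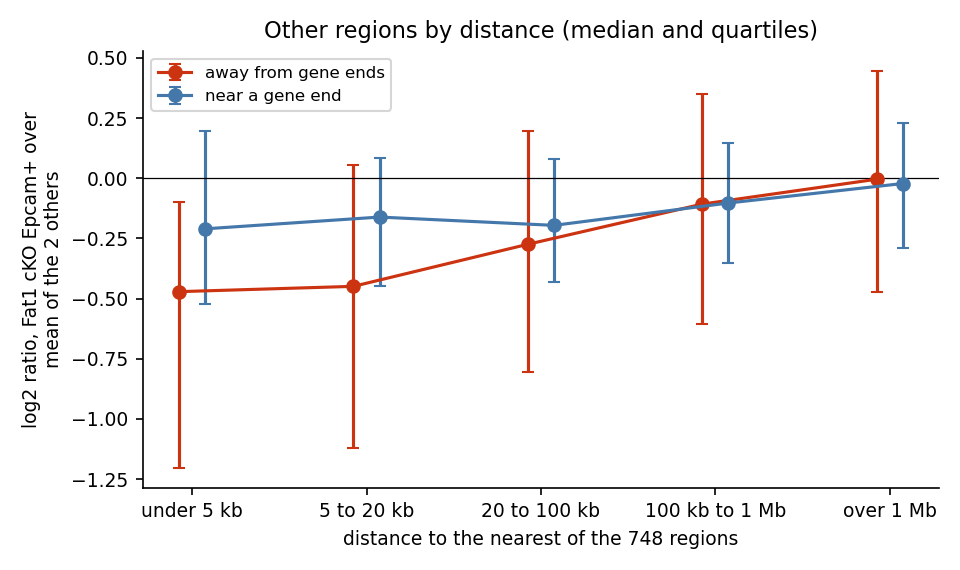
Median (points) and quartiles (bars) of the log2 ratio of the Fat1 cKO Epcam+ column over the mean of the 2 other columns, for regions that could meet the rule and did not, by distance to the nearest of the 748. Away from gene ends (red) the median moves from -0.47 within 5 kb to -0.00 beyond 1 Mb, and near gene ends (blue) from -0.21 to -0.02.

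Chromosomes differed in the share of regions that met the rule. It was highest on chromosome 1, at 4.28% (74 of 1730), followed by chromosome 10 at 3.98% and chromosome 2 at 3.87%. It was lowest on chromosome 7, at 1.18% (21 of 1775). The remaining regions of the chromosomes moved alongside: their median log2 ratio was -0.30 on chromosome 2, -0.20 on chromosome 10 and -0.10 on chromosome 1, and 0.24 on chromosome 7. Both measures come from the ratio the rule used, so a chromosome with a lower median puts more regions past a fixed limit by construction, and the pair is given as a description only. With each chromosome's median set to 0, 603 regions met the rule, 548 of them among the 748.

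**Figure D4:**
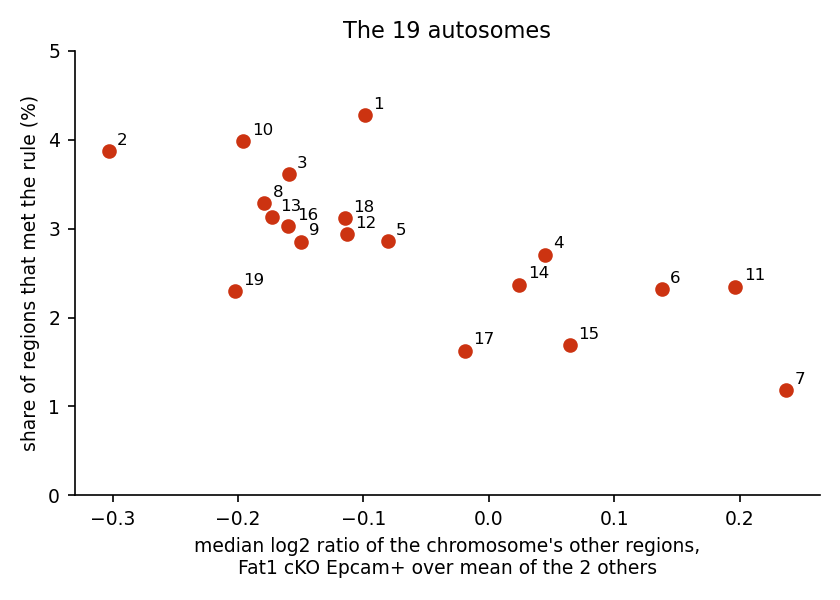
Share of regions that met the rule (%) against the median log2 ratio of the chromosome's other regions, 1 numbered point per autosome. Chromosome 7 stands at the lower right, at 1.18% and 0.24, and chromosomes 1, 2 and 10 at the upper left, at 3.87% to 4.28%.

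Genes were taken as the protein-coding gene whose body is nearest to a region, within 50 kb, which does not show that a region acts on that gene. The rule reached 518 genes through 604 regions, 4.24% of the 12211 genes with a region that could meet it. Of these genes 453 held 1 region, 53 held 2 and 12 held 3 or more. In 91 genes every region able to meet the rule did so, and 8 of those genes had more than 1 such region.

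Gas7, a growth arrest gene whose product binds membranes and actin, held the most, with 6 of its 10 regions able to meet the rule. They lie inside the gene on chromosome 11 between 67509268 and 67624002, away from its ends. The strongest of them, from 67600499 to 67601497, held 97, 14 and 204 counts. The others held 32, 3 and 20, then 73, 19 and 91, then 58, 12 and 96, then 54, 11 and 59, and last 88, 24 and 130. All 29 regions of the gene together came to 295 CPM for control Epcam+, 93.9 CPM for Fat1 cKO Epcam+ and 244 CPM for Fat1 cKO Epcam-. The log2 ratio of the low column was -1.65 against the first and -1.38 against the last, sums that include the 6 regions chosen for being low. The 4 regions of Gas7 that could meet the rule and did not had a median log2 ratio of -1.17.

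Slc16a10, an aromatic amino acid transporter gene on chromosome 10, held 5 of 6. The region over its start, from 40141367 to 40142612, held 182, 46 and 254 counts, and peaks had been called there in all 3 libraries. The region 483 bases beyond its other end, from 40032853 to 40033246, held 20, 1 and 41. The 3 regions in between held 37, 2 and 31, then 77, 7 and 53, and 21, 5 and 30. These 5 regions, from start to far end, were chosen for being low. The other region able to meet the rule held 36, 7 and 33 counts, a smaller fold of 2.95. Over all its 14 regions, the 5 chosen ones included, the gene came to 176 CPM, 31.2 CPM and 118 CPM.

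Slit3 held 5 of 11, all within or beside the gene on chromosome 11. Beside the promoter shown above, its regions held 20, 5 and 35 counts, 69, 12 and 61, 25, 5 and 55, and 48, 3 and 39. The last, from 35419250 to 35419991 and 288887 bases from the gene's nearer end, had the largest smaller fold of them, 6.95. Over all 59 regions, the 5 chosen ones included, Slit3 came to 361 CPM, 172 CPM and 322 CPM.

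Hspb8, a small heat shock protein gene on chromosome 5, held 4 of 5 in a tight group. The region over its start, from 116422001 to 116424013, held 181, 40 and 246 counts, and the region next to it, from 116425339 to 116425750, held 47, 4 and 55. With 2 regions of the neighbouring gene Srrm4 they formed a stretch of 36.4 kb, from 116410705 to 116447091, in which all 6 regions able to meet the rule did. The stretch was bounded by its first and last member, so such a share is high by construction. Fmnl2, a formin gene of actin assembly on chromosome 2, held 4 of 11. Its start held 136, 39 and 236 counts, and a region 97790 bases from its nearer end held 167, 33 and 236.

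The genes with 3 regions were Sdk2, Sipa1l2, Mcub, Nckap5, Rbms3, Trim2 and Tspan18. Sdk2, an immunoglobulin adhesion gene of chromosome 11, held the region with 83, 4 and 83 counts, a smaller fold of 11.7, and further regions with 37, 4 and 35 and with 120, 25 and 198 counts. Mcub, which encodes a dampening subunit of the mitochondrial calcium uniporter, was low at its start (150, 43 and 271 counts) and in its body (72, 14 and 96, and 29, 5 and 61). Nckap5 held a strong region of 326, 56 and 344 counts. In Rbms3, an RNA-binding protein gene, the gene as a whole stayed nearer to even, at 296 CPM, 222 CPM and 301 CPM.

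The largest smaller fold of all, 15.4, belonged to a region on chromosome 7 from 39862550 to 39863051, 282 kb from the nearest protein-coding gene. It held 34, 1 and 49 counts, and with 1 count in the low column the CPM ratio of the control Epcam+ column over it had an exact interval from 5.02 to 1215. The next was inside Esrrg, an orphan nuclear receptor gene, on chromosome 1 from 187800372 to 187801377, with 49, 2 and 93 counts. A second region of Esrrg held 36, 3 and 37. Slc41a2, a magnesium transporter gene, followed with 71, 4 and 110 counts, then Scg5, which encodes the secretory chaperone 7B2, with 50, 2 and 52. Gnptab, an enzyme gene of lysosomal targeting, held 26, 1 and 32, and Galnt7, an O-glycosylation enzyme gene, 44, 2 and 43. These 6 rest on 1 to 4 counts in the low column.

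Regions with the most counts give steadier ratios. The strongest, in Slco5a1, held 385, 62 and 365 counts. Its smaller fold, that of the Fat1 cKO Epcam- column, was 4.04, and that column's CPM ratio over the low one had an interval of 3.12 to 5.45. For the control Epcam+ column the interval was 4.17 to 7.26. Thbd, the gene of thrombomodulin, an anticoagulant surface receptor, had 230, 25 and 315 counts at a region 244 bases from its end on chromosome 2, from 148407197 to 148409667, a smaller fold of 7.81. A region 150 kb from En1, on chromosome 1 from 120757059 to 120759288 and inside a long non-coding RNA gene, held 275, 19 and 217, a smaller fold of 7.58. Nipal1, of a magnesium transporter family, held 244, 59 and 389, Pdzrn3, a ubiquitin ligase gene, 254, 38 and 218, and Abcb1b, a drug efflux pump gene, 175, 50 and 374.

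Near gene ends the list of the largest folds also held Spata7 (25, 2 and 56 counts), Rapgef3, a cAMP-activated exchange factor gene for Rap (86, 12 and 124), and Rdh5, a retinol dehydrogenase gene (29, 4 and 35). Hoxd8, a homeobox gene of the Hoxd cluster, had 77, 13 and 97 counts on chromosome 2 from 74704693 to 74705810. A region 739 bases from an end of Cdkn2a, the tumour suppressor gene of p16 and Arf, held 21, 2 and 36.

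Gene lists for this tissue show where the regions fell by function, and they are read against 4.24% of genes and 2.86% of regions. Genes with more regions able to meet the rule have more chances to hold a member, so the share of regions is the closer comparison. Of 490 symbols in 24 lists, 325 had a region able to meet the rule and 27 held a member. Among epithelial transcription regulators 4 of 11 genes did: Tfap2b, an AP-2 factor gene, Trp63, the p63 gene of stratified epithelia, Ehf and Gata3. Tfap2b held 2 regions, with 42, 8 and 61 counts inside the gene and 40, 7 and 96 counts 2.69 kb beyond it. Trp63 held 54, 11 and 124 at a region 8.47 kb outside the gene body. The Ehf region lies 28.5 kb outside its gene. Over the 35 regions of this list that could meet the rule the median log2 ratio was 0.03 and 5 regions were members (14.3%), so its genes were not low as a whole.

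The median log2 ratio over the 51 regions of epithelial adhesion and keratin genes was 0.34, the opposite sign to the 748 regions, against -0.09 over all regions that could meet the rule. This list held a member in 1 of 17 genes, or 1 of 51 regions (1.96%). EMT transcription factors and mesenchymal genes held 0 of 23 genes, with a median of -0.22 over 48 regions. Squamous differentiation genes held 0 of 5, Sox, Sall, Dach and forkhead factors 0 of 22, and Fat and Dachsous cadherins 0 of 5. In that order these lists had 8, 57 and 9 regions able to meet the rule. At the background of 2.86% of regions, few or no members would fall in lists of such sizes.

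Among signalling genes the Wnt list held 5 of 34, and 5 of its 93 regions (5.38%) were members. They included Lgr5, the R-spondin receptor gene of hair follicle stem cells (41, 6 and 67 counts), Sfrp1, a secreted Wnt antagonist gene (21, 2 and 26), the TCF factor gene Tcf7l2 (37, 7 and 59) and the receptor gene Fzd7 (39, 5 and 30). The fifth was Sfrp2, another secreted antagonist gene (28, 7 and 43). The Sfrp1 region lies 30.0 kb outside its gene. The TGF-beta and BMP list held 3 of 36: Tgfbr3, the co-receptor betaglycan (20, 1 and 32), and the signal transducers Smad1 (27, 4 and 24) and Smad5 (27, 7 and 58). By region this was 3 of 139 (2.16%), below the background. The Smad1 region lies 48.2 kb from its gene, inside a long non-coding RNA gene. The list of FGF, EGF and VEGF ligands and receptors held 3 of 27, the growth factor receptor genes Met (85, 18 and 96) and Egfr (34, 8 and 64) and the co-receptor gene Nrp2 (24, 4 and 22). By region it was 3 of 88 (3.41%), near the background. The Met and Nrp2 regions lie 3.52 kb and 42.1 kb outside their genes. Gli2 (37, 6 and 38) and Dll1 (56, 15 and 87) were the 2 of 22 in the Notch and Hedgehog list, which is 2 of 88 regions (2.27%). The Dll1 region lies 10.4 kb outside its gene.

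Among homeobox patterning factors 4 of 31 genes held a region: Meis2, with 2 of them (88, 21 and 139, and 20, 2 and 27 counts), Hoxc4 (32, 4 and 64), Hoxd8 and Dlx5 (32, 7 and 35). By region this was 5 of 64 (7.81%). The second Meis2 region lies 8.55 kb from its gene and the Hoxc4 region 24.2 kb, each nearer to a long non-coding RNA gene. The Dlx5 region lies 3.08 kb from its gene. Of the tumour stemness and surface markers 2 of 11 held a region, Lgr5 and Cd44, the hyaluronan receptor gene (32, 7 and 36). By region this was 2 of 42 (4.76%). Hair follicle stem cell genes held 2 of 16 (3 of 76 regions, 3.95%), Lgr5 and Nfatc1 (60, 8 and 67, and 205, 40 and 217). Other lists with 1 gene were YAP/TAZ targets (Crim1, 52, 7 and 60, in 1 of 71 regions, 1.41%), AP-1 subunits and neural and glial genes. The AP-1 list held Maf (26, 4 and 51), in 1 of 36 regions (2.78%). The Maf region lies 12.2 kb from its gene, inside a long non-coding RNA gene. The neural and glial list held Syt1 (43, 7 and 42), in 1 of 21 regions (4.76%). T-box and GATA factors also had 1, Gata3 (20, 5 and 27), in 1 of 25 regions (4%).

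Markers of other cell types that a sort could carry held 0 members: 0 of 5 immune, 0 of 8 endothelial, 0 of 4 fibroblast and pericyte, 0 of 4 melanocyte, 0 of 2 skeletal muscle and 0 of 3 adipocyte genes with a region able to meet the rule. In that order the lists had only 7, 17, 7, 7, 2 and 6 such regions. At the background of 2.86% of regions, lists this small would hold few or no members, so the zeros say little about these cell types. Immune markers summed to 124, 120 and 105 CPM and endothelial markers to 165, 175 and 173 CPM. Melanocyte markers summed to 245, 202 and 158 CPM, with Tyr at 0 in all 3 libraries. Skeletal muscle markers summed to 27.4, 42.0 and 43.9 CPM, with Myod1, Myf5 and Myog at 0 in all 3. Adipocyte markers, at 73.6, 50.1 and 70.7 CPM, were lowest in the Fat1 cKO Epcam+ column, as the 748 regions are. Their part in the other regions was not tested. Housekeeping genes held 0 of 9, or 0 of 18 regions. By gene name, zinc finger genes with the prefix Zfp held a member in 5 of 296 (1.69%), and solute carrier genes in 15 of 237 (6.33%). By region these were 5 of 441 (1.13%) and 20 of 466 (4.29%).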

How the data were processed

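Per the file header, the authors deposited raw counts and yes or no peak calls for 3 ATAC-seq libraries over merged regions. The submitters' processing notes name GRCm38 (mm10), MACS2 2.1.0.20151222, Picard, SAMtools and Bowtie2 2.2.6, with no role. For the counting tool, filters and Tn5 shift, nothing is given in the sources used here. Coordinates are printed as the deposited table gives them.

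From the counts, nuclear totals (2 mitochondrial regions left out), scaled values, CPM and folds were computed in Python 3.11.15. edgeR 4.0.16 in R 4.3.3 gave TMM factors for an alternative. The rule was also run on simulated data. Neither the setting nor the result of that run is given here, so it is no evidence for the regions described above. Intervals are exact Clopper-Pearson 95% intervals, which cover counting error only. PCR copies are not independent molecules, as the reads carry no stated molecular identifier. Gene ends and symbols came from a RefSeq table of GRCm38.p6, in which 487 of 490 listed symbols were found. A gene's ratio is of CPM, and a region's log2 ratio is of scaled values over the geometric mean of the other columns.

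Named regions are the 10 with the largest smaller fold, the 10 with the most counts, the 15 near a gene end with the largest fold, genes with the most regions (up to 15) and up to 4 genes per list. Not all are printed. Unnamed gene models are counted but not named. The regions, gene lists and alternatives were chosen with earlier results of these data known. In the list of epithelial adhesion and keratin genes, results for single genes are not reported here.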

Additional observations from a re-analysis of the deposited data

How the results depend on the processing

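With TMM effective library sizes 599 regions met the rule, with median-of-ratios factors 617, with 2 counts added 590 and with the high columns under 1.5-fold apart 566, of which 598, 616, 589 and 566 were among the 748. Counts moved by more than 1.5 times with the count minimum and the fold. Without a minimum, 1786 regions met the rule in 1152 genes, and 2003 and 4252 regions were low only in the control Epcam+ and Fat1 cKO Epcam- columns. At a minimum of 40 counts these were 286, 207, 769 and 1225, and at 4-fold 309, 219, 455 and 1323. At 4-fold and at 40 counts fewer regions can qualify by construction. The shares that follow are of members only. The background shares given above belong to the main setting, and a wider distance raises any such share by construction. Among regions able to meet the rule, the near-end share rose from 8.63% at 40 to 79 counts in both high columns together to 59.9% at 160 or more. The share near a gene end was 5.54% without a minimum, 15.4% at 40 counts and 17.9% within 5 kb of an end. The share inside a gene was 60.8% at 40 counts, from 57.2%. The share with a Fat1 cKO Epcam+ peak call was 5.01% with TMM, 2.86% without a minimum, 17.8% at 40 counts and 3.88% at 4-fold. The share with another member within 100 kb was 30.4% without a minimum, 19.6% at 40 counts, 18.1% at 4-fold and 20.5% with the high columns under 1.5-fold apart, and it was 9.09% within 20 kb. The cause of the other shifts was not tested. In all, 49 alternative values stayed within their limits and 25 moved. Setting each chromosome's median to 0 and measuring from transcription starts were chosen after seeing the data. No paired analysis was possible because each group has 1 library, and no library could be left out. The 3812880 nuclear counts of the low column limit what can be seen: 1 count there is 0.262 CPM.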

Other observations

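A stretch of chromosome 4 held 7 of the regions among 33 able to meet the rule (21.2%), over 4.93 Mb from a region 76.1 kb from Ifne to beyond Tusc1. The stretch was chosen once its values had been seen. Cdkn2b, a cell cycle inhibitor gene next to Cdkn2a, lies 40.4 kb from a region that held 44 counts in the control Epcam+ column, 4 in the Fat1 cKO Epcam+ column and 96 in the Fat1 cKO Epcam- column. The region 76.1 kb from Ifne held 46, 6 and 55 in the same order, and the region over the start of Tusc1 held 204, 57 and 365. The former lies past the 50 kb limit for a gene, and 83 bases from a long non-coding RNA gene. The 26 other regions of the stretch had a median log2 ratio of -0.38, with 17 of them below 0.

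Of the 144 regions more than 50 kb from any protein-coding gene, 33 lay inside a long non-coding RNA gene. The same share among all regions that far from a gene and able to meet the rule is not given here. Whether the 33 are more or fewer than usual is thus not known. A region 90.4 kb from Rtl1, an imprinted retrotransposon-derived gene, held 72, 4 and 79 counts on chromosome 12 from 109694183 to 109695432, a smaller fold of 11.1. None of the 748 regions overlapped a miRNA hairpin of the RefSeq table. The matching share of all regions that could meet the rule is not given here, so this says little about the 748. With chromosome X included, 762 regions met the rule.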
